A study of Oryza sativa Japonica Group with 6 samples.

Results

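9 rice genes known from floury grains or altered starch granules were followed, all 9 of them present among the 93655 features of the deposited table. They were chosen by gene ID: FLO2 (OS04G0645100), FLO4, also called PPDKB (OS05G0405000), FLO6 (OS03G0686900), FLO7 (OS10G0463800), FLO10 (OS03G0168400), FLO11 (OS12G0244100), SSG4 (OS01G0179400), SSG6 (OS06G0130400) and PPDKA (OS03G0432100). RNA sequencing was done on endosperm of japonica rice at 7 days after pollination, with 3 libraries labelled nf-yc11, a mutant named after an NF-YC subunit of the CCAAT-binding factor NF-Y, and 3 labelled wild type (WT). The series title names the cultivar ZH11, and the design asks how mRNA levels in the mutant compare with WT. The labels give neither the allele of the mutant, nor the number of lines, nor whether each library came from a plant of its own, and the p-values therefore speak only to the variation among these 6 libraries, part or all of which may be technical.

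Starch in the rice endosperm is laid down inside amyloplasts, where many small granules form together in one compound grain. When this packing fails, air spaces scatter light and the grain turns opaque and powdery, which is called floury. The genes found through such grains do not belong to one pathway: they include enzymes of carbon metabolism, plastid chaperones, proteins that touch the granule or the amyloplast membrane, and an RNA-processing protein of mitochondria.

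Values were FPKM, reads scaled by gene length and library total. On this scale levels of different genes can be set side by side, as far as the gene lengths used are right. The totals behind the values were 15735968 to 16989039 reads in nf-yc11 libraries and 14593215 to 21984785 in WT libraries. Whole reads could be worked back for 36189 of the 36189 features above 0, and 1 read on 1000 bases was worth 0.0455 to 0.0685 FPKM. Of the endosperm markers fixed for the tissue check, GBSSI is counted below with the starch synthesis genes. It fell, at 608 ± 26.4 FPKM in nf-yc11 libraries against 1063 ± 19.5 FPKM in WT libraries (SD, n = 3 each). Of the other 4, GluA1, a glutelin storage protein gene, was the most abundant. GluA1 was at 13400 ± 129 FPKM in nf-yc11 libraries and 15725 ± 190.1 FPKM in WT libraries (SD, n = 3 each). GluA1, GluA2 (not under quantile normalization) and GluD1 fell, and RPBF did not pass. In the test, described below, 19.3% of all features were called lower and 29.8% higher. Together the 4 summed to 25248 to 25564 FPKM in nf-yc11 libraries against 29824 to 30646 FPKM in WT libraries. The numbering of NF-YC genes differs between sources, and the labels give no ID for the mutated gene. The gene paired here with the name NF-YC11 (OS05G0304800) was at 109.7 ± 3.35 FPKM in nf-yc11 libraries against 126 ± 3.07 FPKM in WT libraries, and the one paired with NF-YC12 (OS10G0191900) was at 192 ± 1.41 FPKM in nf-yc11 libraries against 755 ± 12.1 FPKM in WT libraries. NF-YB1, an endosperm NF-YB subunit gene, was at 239.5 ± 4.42 FPKM in nf-yc11 libraries against 439 ± 14.7 FPKM in WT libraries. All 3 fell in the test described below, as did 19.3% of all features. Since a mutant gene may still be transcribed, RNA levels cannot tell which gene carries the mutation.

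5 of the 9 genes fell in the libraries labelled nf-yc11, 1 rose and 3 did not pass the test. FLO4 and FLO2 fell most, by 37.4% and 34.1% of their mean WT level, FLO7, PPDKA and FLO11 fell by 18.9% to 20.5%, and SSG6 rose by 41.5%. The test was limma on log2(FPKM + 1) over the 22093 features that averaged 1 FPKM or more, with Benjamini-Hochberg adjustment over all of them and a threshold of 0.05. In that test 49.1% of all features were called, 19.3% as lower and 29.8% as higher in nf-yc11. The split between lower and higher depends on the scaling, here and wherever these shares are given. It was 4256 lower and 6586 higher as deposited, but 5295 lower and 5434 higher with size factors. The median log2 change was −0.30 over the 9 genes and 0.06 over all features, all 9 having passed the filter on low values. The libraries of the 2 groups did not overlap in FPKM for 6 of the 9 genes, against 59.7% of all features tested. For 5 genes all nf-yc11 libraries lay below WT (24.4% of all features) and for 1 all lay above (35.3%). In bulk tissue, fewer cells that hold a transcript and less of it per cell cannot be told apart.

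**Figure D1:**
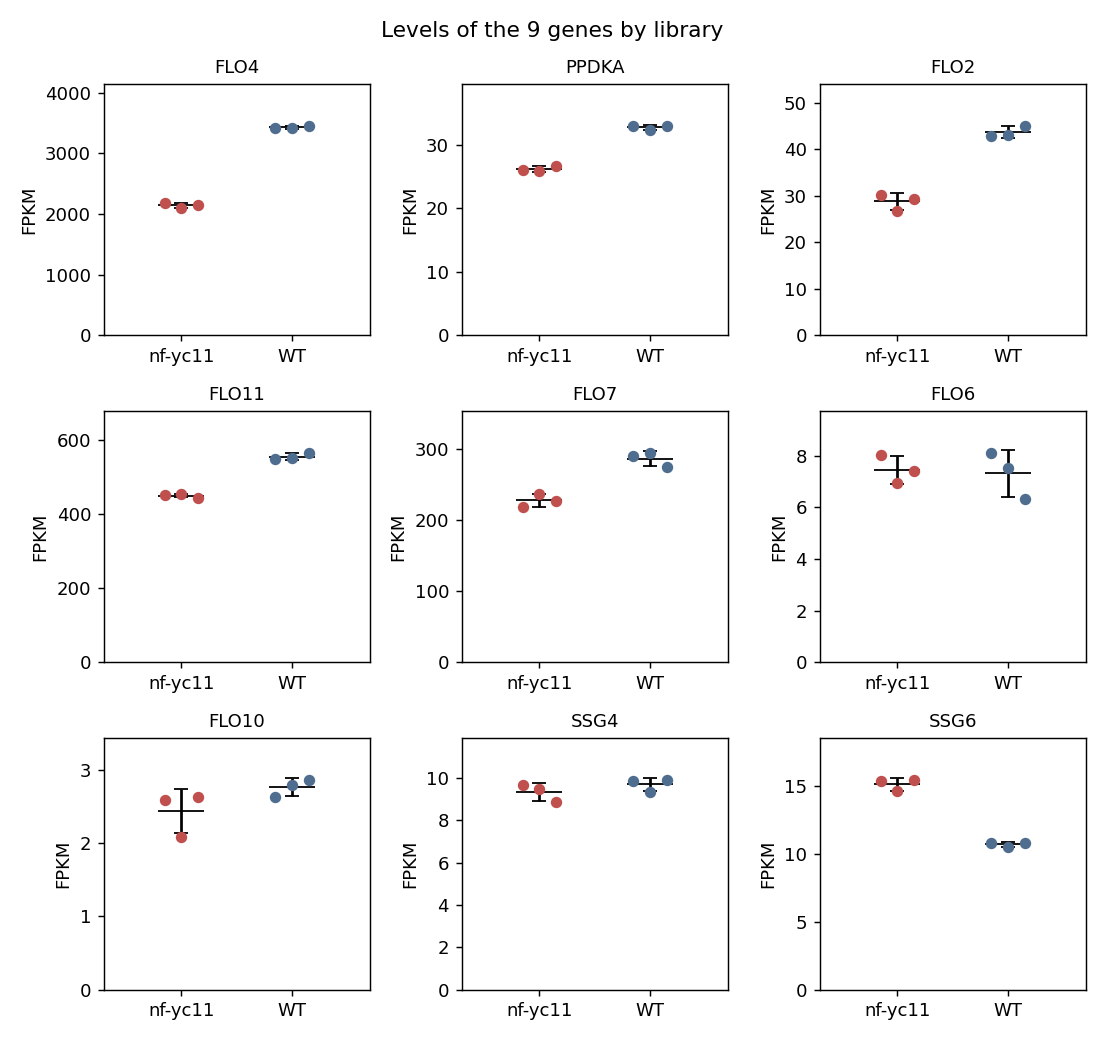
FPKM of the 9 genes in each library, nf-yc11 left of WT, on linear axes from 0 that differ between panels. Points are libraries, and bars are the mean and SD of 3 libraries. FLO4, PPDKA, FLO2, FLO11 and FLO7 lie lower in nf-yc11 with no overlap, SSG6 lies higher, and FLO6, FLO10 and SSG4 overlap.

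FLO4 encodes the main endosperm form of pyruvate orthophosphate dikinase, the enzyme that interconverts pyruvate and phosphoenolpyruvate, and it dominated the group. It was at 2183, 2102 and 2152 FPKM in nf-yc11 replicates 1 to 3, against 3415, 3413 and 3458 FPKM in WT replicates 1 to 3. Every nf-yc11 library lay below every WT library, and the SD within a group was 1.91% of the mean in nf-yc11 and 0.743% in WT. The fall was 1.60-fold, with a log2 change of −0.68 (95% interval −0.73 to −0.62, adjusted p = 5.66e-06, limma). FLO4 took 0.666% ± 0.0127 of all reads in nf-yc11 libraries and 1.06% ± 0.0079 in WT libraries (SD, n = 3), and its WT level ranked 29 among the features tested. It held 73.0% to 74.1% of the summed FPKM of the 9 genes in nf-yc11 libraries and 78.2% to 78.5% in WT libraries. The gene is known to give a cytosolic and a plastid transcript from separate start sites, and 1 value covers both here.

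PPDKA, the other dikinase gene, was far less abundant. It was at 26.1, 25.8 and 26.7 FPKM in nf-yc11 libraries, against 33.0, 32.3 and 33.0 FPKM in WT libraries. The groups did not overlap, and the fall of 1.25-fold passed the test (log2 change −0.31, 95% interval −0.40 to −0.22, adjusted p = 0.000677, limma). The ratio of FLO4 to PPDKA was 81.9 ± 1.67 in nf-yc11 libraries and 105 ± 1.06 in WT libraries (SD, n = 3). On the log2(FPKM + 1) scale this ratio differed by −0.36, with no overlap between the groups and p = 0.1 in a two-sided exact permutation test, the smallest p that 3 against 3 libraries allow. FLO4 still made up 98.8% of the summed FPKM of both genes in nf-yc11 libraries and 99.1% in WT libraries. The genes encode closely similar proteins, and how the counting treated reads that match both is not known from the labels, so the level of PPDKA beside a partner so abundant is uncertain.

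FLO11 encodes a plastid HSP70 chaperone, which helps imported proteins fold. Its levels were 452, 454 and 445 FPKM in nf-yc11 libraries, against 549.6, 551 and 566 FPKM in WT libraries. All 3 nf-yc11 values lay below the lowest WT value, and the log2 change was −0.30 (95% interval −0.36 to −0.24, adjusted p = 0.00013, limma), a fall of 1.23-fold. HSP70CP1 (OS05G0303000), the gene of a related stromal HSP70, went the other way. It was at 71.8, 78.4 and 75.4 FPKM in nf-yc11 libraries, against 50.4, 47.2 and 48.2 FPKM in WT libraries, a rise of 1.55-fold (log2 change 0.62, adjusted p = 8.98e-05, limma). FLO11 stood at 5.999 ± 0.269 times the FPKM of HSP70CP1 in nf-yc11 libraries and 11.4 ± 0.465 times in WT libraries (SD, n = 3). The log2 ratio differed by −0.92, again at the smallest possible p of 0.1 (two-sided exact permutation test). Every FLO11 value was lower and every HSP70CP1 value higher in nf-yc11, so this p could not have been larger. It adds no support to the changes of the single genes. Of the summed FPKM of both genes, FLO11 made up 85.7% in nf-yc11 libraries and 92.0% in WT libraries. As for the dikinase genes, reads matching both copies could have been counted for either.

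**Figure D2:**
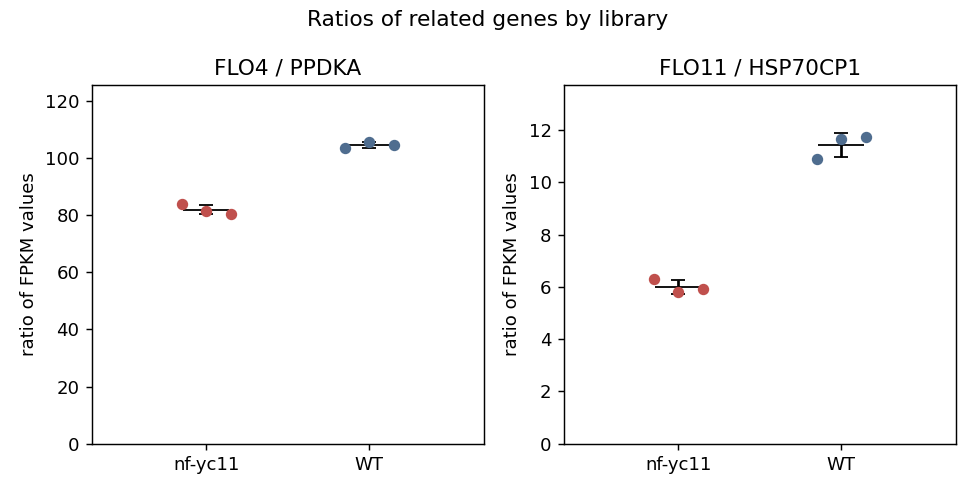
Ratio of FPKM values of FLO4 to PPDKA and of FLO11 to HSP70CP1 in each library, nf-yc11 left of WT, on linear axes from 0. Points are libraries, and bars are the mean and SD of 3 libraries. Both ratios are lower in every nf-yc11 library than in any WT library: 80.6 to 83.8 against 104 to 106, and 5.79 to 6.30 against 10.9 to 11.8. For FLO11 to HSP70CP1 this follows from the opposite changes of the single genes.

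FLO2 encodes a protein with tetratricopeptide repeats, which bind other proteins, and its loss is known to lower many storage reserve transcripts in rice grains. It was at 30.2, 26.8 and 29.2 FPKM in nf-yc11 libraries, against 42.9, 42.9 and 45.0 FPKM in WT libraries. The highest nf-yc11 value was well below the lowest WT value. The log2 change was −0.59 (95% interval −0.71 to −0.46, adjusted p = 0.000211, limma), a fall of 1.52-fold. Its nf-yc11 libraries varied by 6.10% of their mean, where reads alone would give 2.31%.

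FLO7 encodes a plastid protein known to be needed in the outer part of the endosperm. It was at 219, 237 and 228 FPKM in nf-yc11 libraries, against 291, 295 and 275 FPKM in WT libraries. The groups did not overlap, although replicates varied by 3.96% in nf-yc11 and 3.72% in WT, more than the 1.42% and 1.22% that counting gives. FLO7 fell 1.26-fold, with a log2 change of −0.33 (95% interval −0.43 to −0.23, adjusted p = 0.000804, limma).

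The starch granule genes SSG4 and SSG6 are both known from mutants with enlarged starch grains. SSG6 rose and SSG4 did not pass the test, and the difference between their changes was not tested. SSG6 encodes an aminotransferase-like protein of the amyloplast membrane. It was at 15.3, 14.6 and 15.4 FPKM in nf-yc11 libraries, against 10.8, 10.5 and 10.8 FPKM in WT libraries, from 346 to 577 reads a library. All nf-yc11 libraries were above all WT libraries, and the rise was 1.41-fold (log2 change 0.46, 95% interval 0.35 to 0.58, adjusted p = 0.000383, limma). It was the only one of the 9 genes that rose. SSG4, which encodes a large plastid protein, was at 9.66, 9.49 and 8.88 FPKM in nf-yc11 libraries, against 9.85, 9.36 and 9.91 FPKM in WT libraries. These ranges overlapped, and the log2 change of −0.05 did not pass (95% interval −0.19 to 0.09, adjusted p = 0.504, limma). SSG6 and SSG4 averaged 15.1 and 9.34 FPKM in nf-yc11 libraries, against 10.7 and 9.71 FPKM in WT libraries.

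FLO6 and FLO10 were among the lowest of the 9 genes and did not pass the test. FLO6, a starch-binding protein known to interact with the debranching enzyme ISA1, was at 8.01, 6.95 and 7.39 FPKM in nf-yc11 libraries, against 8.11, 7.51 and 6.32 FPKM in WT libraries. The nf-yc11 values lay within the WT range, and the log2 change was 0.03 (95% interval −0.20 to 0.26, adjusted p = 0.838, limma). Its sign changed with the scaling between libraries. FLO10, a pentatricopeptide repeat protein that acts on mitochondrial transcripts, was at 2.59, 2.09 and 2.64 FPKM in nf-yc11 libraries, against 2.63, 2.80 and 2.87 FPKM in WT libraries. The nf-yc11 range reached into that of WT by 1 library, and nf-yc11 replicate 2 was lowest. Its log2 change of −0.13 had a 95% interval of −0.37 to 0.10 (adjusted p = 0.305, limma). FLO10 rested on 90 to 156 reads a library, where counting alone gives a spread of 9.67% in nf-yc11 and 8.80% in WT. FLO6 rested on 189 to 365 reads. For SSG4, FLO6 and FLO10 the intervals leave room for changes of the sizes given, and a missed threshold does not show equal levels.

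Levels of the 9 genes spanned a wide range and kept one order in both groups: FLO4, FLO11, FLO7, FLO2, PPDKA, SSG6, SSG4, FLO6 and FLO10. No neighbours in that order overlapped within either group. FLO2 and PPDKA were barely apart in nf-yc11, where the lowest FLO2 value was 26.80 FPKM and the highest PPDKA value 26.71 FPKM. As said above, the level of PPDKA is uncertain. FLO11 and FLO7 were at 451 and 228 FPKM on average in nf-yc11 libraries, and at 555 and 287 FPKM in WT libraries. The 5 genes that fell were the 5 most abundant, and the next 4 held the rise and the 3 without a call, a description of 9 genes with no test.

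**Figure D3:**
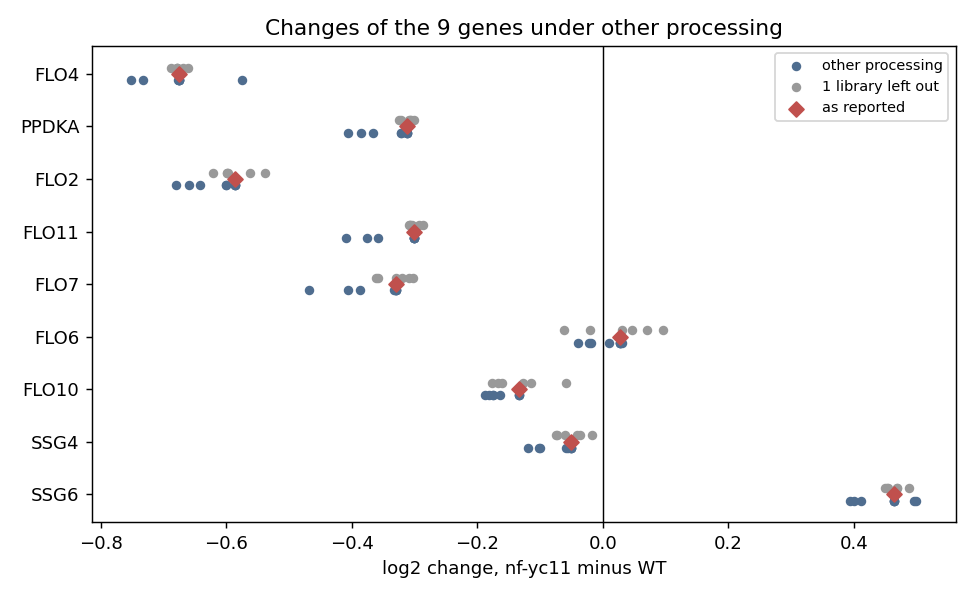
Log2 change of each of the 9 genes, nf-yc11 minus WT, as reported (diamonds), under other processing (blue) and with 1 library left out (grey). The 5 genes that fell reach no higher than −0.29 and SSG6 no lower than 0.39 under the alternatives tried, while FLO6 lies on both sides of 0.

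Other genes of starch synthesis and of opaque grains were set beside them, from lists chosen with earlier results of these data known. Of 14 genes of starch synthesis, 13 fell and 1 rose, with a median log2 change of −0.66. Of all features tested, 19.3% were called lower and 29.8% higher. AGPS2, whose product is part of the enzyme that makes ADP-glucose, was at 135 ± 12.8 FPKM in nf-yc11 libraries and 473 ± 5.78 FPKM in WT libraries (SD, n = 3). Pullulanase (PUL) was at 312 ± 12.2 FPKM in nf-yc11 libraries against 642 ± 10.5 FPKM in WT libraries, and the plastid starch phosphorylase gene PHOL at 229.5 ± 4.44 FPKM in nf-yc11 libraries against 400.2 ± 7.32 FPKM in WT libraries. BEIIb, a branching enzyme gene, was the one that rose (2132 ± 47.7 FPKM in nf-yc11 libraries against 1619 ± 27.6 FPKM in WT libraries). In FPKM it was the most abundant of the list over all 6 libraries (BEI was higher in WT). That rank depends on the lengths worked back, 837 bases for BEIIb and 2682 for BEI. BEI took 0.417% of reads against 0.178% for BEIIb in nf-yc11 libraries, and 0.495% against 0.136% in WT libraries. ISA1, the partner of FLO6, fell to 461 ± 17.7 FPKM in nf-yc11 libraries, against 559 ± 3.05 FPKM in WT libraries, while FLO6 itself was not called.

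Of 13 other genes known from opaque or floury grains, 12 could be tested: 7 fell, 3 rose and 2 were not called (median log2 change −0.25). The shares over all features were 19.3% lower and 29.8% higher. UGP1, a UDP-glucose pyrophosphorylase gene also named FLO8, fell most, with a log2 change of −1.93 and 20.5 ± 0.481 FPKM in nf-yc11 libraries against 80.8 ± 1.59 FPKM in WT libraries (adjusted p = 1.05e-06, limma). NAC20, a transcription factor gene of the endosperm, was at 281 ± 12.6 FPKM in nf-yc11 libraries against 447 ± 3.28 FPKM in WT libraries. PDIL1-1, a protein disulfide isomerase gene and the most abundant of the list, was at 1748 ± 46.1 FPKM in nf-yc11 libraries against 2335 ± 35.6 FPKM in WT libraries. The 3 that rose were FLO14, FLO15 and FLO16, named after their values were seen. FLO14, of the same repeat protein family as FLO10, was at 4.35 ± 0.138 FPKM in nf-yc11 libraries and 2.36 ± 0.478 FPKM in WT libraries. FLO15, a glyoxalase gene, was at 203 ± 11.5 FPKM in nf-yc11 libraries against 138 ± 1.67 FPKM in WT libraries. FLO16, a cytosolic malate dehydrogenase gene, was at 742 ± 16.9 FPKM in nf-yc11 libraries against 579 ± 9.96 FPKM in WT libraries. The gene listed as PFP1 was near 0 at 0.0523 and 0.0493 FPKM on average in nf-yc11 and WT libraries, below the filter, and its pairing of name and ID was not checked.

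**Figure D4:**
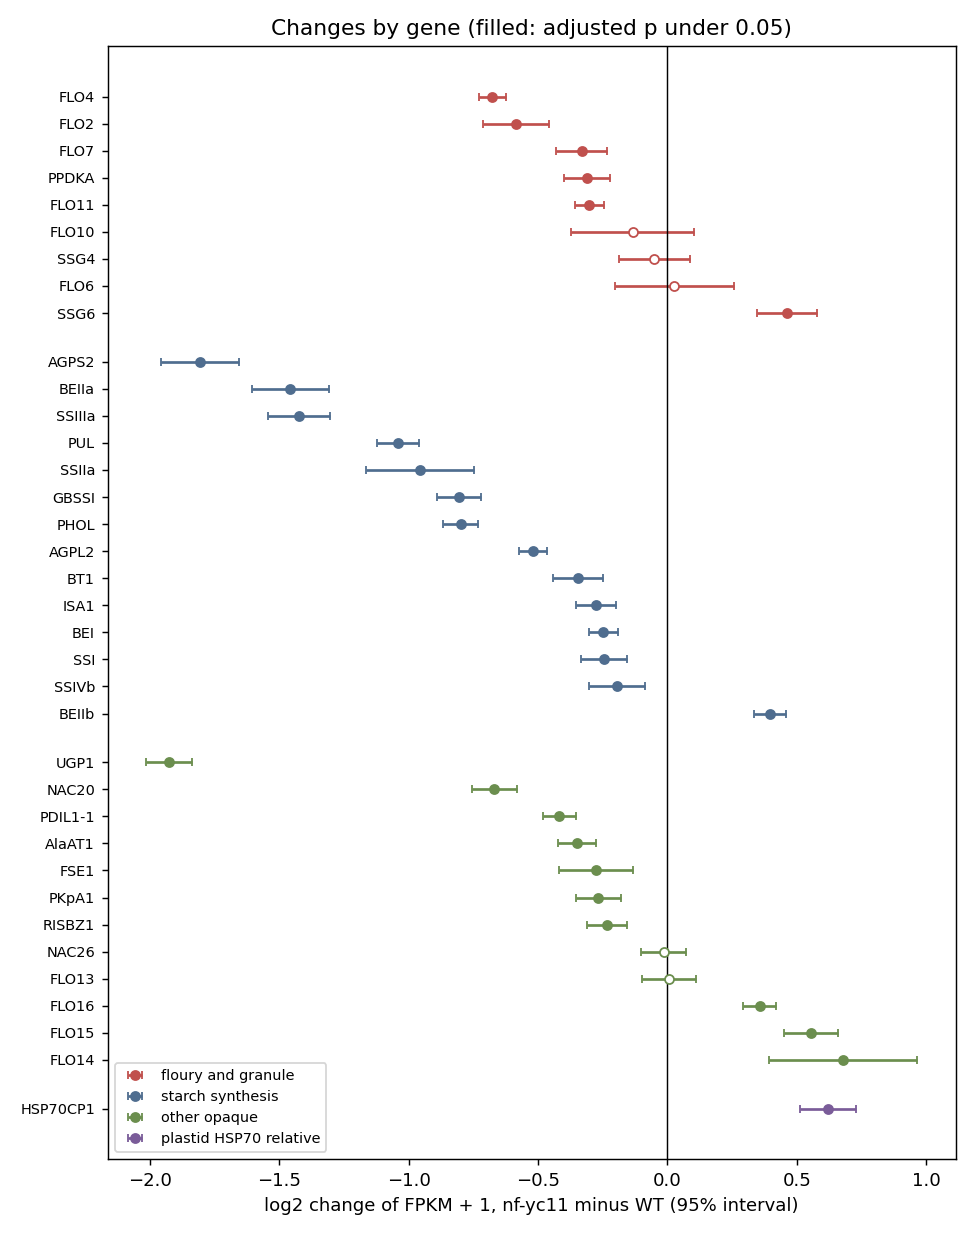
Log2 change of FPKM + 1, nf-yc11 minus WT, with its 95% interval for the 9 floury and granule genes, 14 starch synthesis genes, 12 other opaque grain genes and HSP70CP1. Filled points passed the adjusted threshold of 0.05 (limma). The 9 genes span −0.68 to 0.46, inside the −1.81 to 0.40 of starch synthesis genes except for SSG6.

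The library-by-library pattern of each of the 9 genes was matched to the 26 tested genes of both lists, by the Euclidean distance of log2(FPKM + 1) values centred on their own mean over 6 libraries. FLO4 and FLO2 were both nearest to NAC20, at distances of 0.0672 and 0.142. FLO11 was nearest to BEI, a branching enzyme gene (0.0871), and PPDKA to ISA1 (0.083). FLO7 was nearest to FSE1, a phospholipase-like gene (0.0972). SSG6 was nearest to BEIIb (0.134), the starch synthesis gene that rose. FLO10 was nearest to the starch synthase gene SSIVb (0.175). SSG4 and FLO6 were nearest to FLO13, a mitochondrial complex gene that was not called, at 0.123 and 0.284. With 2 groups of 3 libraries, such distances mostly restate the size of the group difference.

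Some markers of other seed parts differed between the groups, in both directions, and others were not called. Their part in these results was not tested. Calls were common over all features too, with 19.3% called lower and 29.8% higher. Of the 5 pericarp and nucellus markers, 2 fell, LHCB6 rose and 2 were not called. The adjusted p of LHCB6 was 0.0272 (limma), but 0.0519 to 0.0755 with any 1 WT library left out. The 5 summed to 1441 to 1566 FPKM in nf-yc11 libraries against 1616 to 1634 FPKM in WT libraries. CAB1R, a light-harvesting gene, was at 272 ± 7.14 FPKM in nf-yc11 libraries against 438 ± 3.82 FPKM in WT libraries. MADS29, active in the nucellus, was at 33.8 ± 1.36 FPKM in nf-yc11 libraries against 41.8 ± 0.793 FPKM in WT libraries. CAB2R, the most abundant, was at 1143 ± 67.2 FPKM in nf-yc11 libraries against 1107 ± 12.6 FPKM in WT libraries, not called. Of 5 embryo and aleurone markers, summed to 5158 to 5556 FPKM in nf-yc11 libraries against 4514 to 4862 FPKM in WT libraries, 4 could be tested: OLE16 rose, RAB21 and LEA3 fell, and OLE18 did not pass. OSH1, a gene of the embryo shoot meristem, was below the filter at 0.939 and 0.805 FPKM on average in nf-yc11 and WT libraries. No marker was at 0 in all libraries.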

How the data were processed

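FPKM values of the 6 libraries, 1 column each, came from 1 table made and deposited by the authors, with columns matched to samples by title. TRIzol was used for total RNA and a standard Illumina protocol for the libraries, per the labels' protocols. CASAVA 1.7, HISAT2 2.0.5 and DESeq are named, with no role, per the submitters' processing notes. Build, annotation and counting tool: not given in the sources used here. No coordinates are printed. Whole reads were worked back from the FPKM values, within 0.0001 of a whole number, and summed to 99.6% to 99.7% of the totals.

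Changes (nf-yc11 minus WT) were fitted with the limma package, version 3.58.1 (R 4.3.3), using its variance trend. Changes on the log2(FPKM + 1) scale are too small for genes of low level, and a fold in the text is a ratio of group means in FPKM. The test was checked on simulated data. There it called 10% of log2 changes of 0.3, 26% of 0.5, 78% of 1 and 98% of 2. Of unchanged features it called 0.0639%. Far fewer features were changed there than were called in the data. The changed ones were also drawn at random over all levels, with an assumed spread. These shares therefore need not hold in the data, nor for abundant genes such as FLO4, FLO11 and FLO7. Permutation tests used scipy 1.17.1.

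The 9 genes and all lists were chosen with earlier results of these data known. Symbols were paired with IDs from general knowledge. Of the 9, the RefSeq gene table (assembly ASM3414082v1) held FLO6, PPDKB and a PPDK2, each on the chromosome its ID gives. The others were searched there by name and not found, so their pairs of symbol and ID remain unchecked. Named genes were the 9, the NF-Y genes, HSP70CP1, the nearest pattern of each, and from each list the most abundant and the 3 with the smallest p. GBSSI and RPBF were named as endosperm markers fixed for the tissue check. FLO14, FLO15, FLO16, PFP1 and OSH1 were named after their values were seen. Sequences are not shown. Alternatives were another pseudocount, filters, scalings, no variance trend, a replicate block, voom on the recovered reads, and leaving out each library.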

Additional observations from a re-analysis of the deposited data

How the results depend on the processing

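The 6 calls among the 9 genes held under every alternative tried: other pseudocount, no filter or at least 5 FPKM, size factors, quantile normalization, a library total that leaves out the 100 most abundant features, no variance trend, replicate block, voom, and each library left out. The highest adjusted p of any of them was 0.00536 (FLO7, limma). FLO10 could not be tested at a minimum of 5 FPKM. Scalings moved the median of all features by −0.063 to −0.047 on the log2 scale. Under them FLO4 changed by −0.75 (size factors), −0.58 (quantile) and −0.73 (total without the 100 most abundant), and FLO6 turned to −0.039, −0.019 and −0.023. Leaving out 1 library at a time moved FLO6 between −0.061 and 0.096. Genes named beside them also changed sign without a call. FLO13 was at −0.068, −0.10 and −0.0497 under these 3 scalings, and −0.016 to 0.044 with 1 library left out. CAB2R was at −0.032, −0.12 and −0.013, and −0.0025 to 0.080 with 1 library left out, and OLE18 was at −0.036 under quantile normalization. The rise of LHCB6 (log2 change 0.39) lost its call under size factors (adjusted p = 0.059), quantile normalization (0.0572), no filter (0.0545) and without WT replicate 1 (0.0741), 2 (0.0755) or 3 (0.0519). The fall of GluA2 (−0.21) lost its call under quantile normalization (0.224, limma). The count of called features was 10842, and ranged from 8320 to 11694. Higher and lower calls were 6586 and 4256 as deposited, 5434 and 5295 with size factors. Libraries of the same number deviated from their group means with correlations of −0.0505, 0.0042 and −0.0477, so the numbers were not taken to pair them. The replicate block gave 9948 called features and changed no call among the 9 genes (FLO4 at adjusted p = 0.000323, limma). The cause of these shifts was not tested. Of the 9 genes, FLO10 and FLO6 had the fewest reads.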
